A study of Mus musculus with 9 samples.

Results

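The catalytic and variant subunits of Polycomb repressive complex 1 (PRC1) were followed through the transcripts of 10 genes, Rnf2, Ring1, Rybp, Yaf2, Kdm2b, Bcor, Bcorl1, Pcgf1, Pcgf3 and Pcgf5. Each gene was included because at least 1 of its probes is listed in the authors' expression table, by the RefSeq accession or Ensembl gene given there, and every probe annotated to it was used. This gave 17 probes, of which 14 are among the 30170 probes of that table (21749 Ensembl genes) and 3 are found only in the scan files, 1 each for Yaf2, Bcor and Pcgf5. Expression was measured on 9 single-colour Agilent arrays, 1 per sample, in mouse embryonic stem cells (mESCs) of the E14Tg2a line, male cells of strain 129P2/OlaHsd grown in medium with fetal bovine serum and LIF, the cytokine that keeps mESCs undifferentiated. There were 3 groups of 3 samples: the parental wild-type cells (WT), Ring1B -/- cells lacking exon 3 of Rnf2 on both alleles (KO), and Ring1B I53A/I53A cells (I53A), which carry on both alleles of Rnf2 a codon change that replaces an isoleucine of RING1B needed to engage the ubiquitin-conjugating enzyme. Both mutants were made by gene targeting of the same parental cells with selection of drug-resistant clones, and more than 1 independent line per mutant is not described for the arrays. Effects of a line and of its mutation therefore cannot be told apart here. The study describes the 3 samples of a group as biological replicates, without saying whether they came from separate cultures, and the p-values measure the variation among them.

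PRC1 is a family of complexes built around RING1B (encoded by Rnf2) or RING1A (encoded by Ring1), RING finger proteins that attach ubiquitin to histone H2A. Each complex holds 1 PCGF protein, which pairs with the RING1 protein and decides which other subunits join. Canonical complexes carry a CBX protein that reads methylated histone H3, whereas variant complexes carry RYBP or its relative YAF2 at the same site and are the more active ligases. The comparison asked whether loss of RING1B, or of its ligase activity alone, altered transcripts of the subunits it assembles with.

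Probe sequences were read, and part of them is printed for the genes the results turn on. All member probes are 60 bases long, and the last 30 bases, 5′ to 3′, are given for Bcor, Yaf2, Rnf2 and Pcgf5. Bcor was the only member called, and Rnf2 is the mutated gene. Yaf2 arrays lay above WT in both mutants without passing the test, as did those of Kdm2b A_55_P2065154, which is not printed. Pcgf5 has a further probe outside the table. Capitals mark the polyadenylation hexamers AATAAA and ATTAAA, searched on the probe strand only, with overlapping matches both marked.
Bcor A_51_P183630: ctttctaaaattttaagtcagtttttatga
Yaf2 A_51_P292754: gATTAAAtaggaagttgttATTAAATAAAg
Rnf2 A_51_P382253: tgtaactaaagtgtcagtcattttaactat
Pcgf5 A_55_P1996171: aaacttttatgtaaaaaagAATAAAcaacc
A hexamer lay in these last 30 bases in 2 of the 14 member probes of the table and in 13.3% of all table probes. Where each probe lies within its gene, and for Rnf2 whether it lies in the deleted exon, was not established. The deleted Rnf2 allele is described as still giving a transcript, so the Rnf2 signal does not check the KO label.

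Upstream sequence was read from RefSeq's promoter windows (GRCm38.p6, from 250 bases before to 50 bases after a transcription start), since KDM2B, a member, binds unmethylated CpG dinucleotides. The 250 bases before an annotated start are printed for Bcor and Rnf2, both on the minus strand, 5′ to 3′ in the direction of transcription, with each CG in capitals. For Bcor this start lies inside the gene, whose annotated 5′ end is at 12160516. The printed Bcor stretch is therefore partly within the gene, whereas that of Rnf2 lies wholly before it.
Bcor chrX:12160347-12160596 (minus strand): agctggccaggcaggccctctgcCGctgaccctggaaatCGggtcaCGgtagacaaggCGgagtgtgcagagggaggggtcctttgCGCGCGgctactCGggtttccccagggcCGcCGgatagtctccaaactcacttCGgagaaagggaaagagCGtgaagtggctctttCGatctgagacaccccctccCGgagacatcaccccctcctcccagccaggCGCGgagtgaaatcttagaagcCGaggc
Rnf2 chr1:151500992-151501241 (minus strand): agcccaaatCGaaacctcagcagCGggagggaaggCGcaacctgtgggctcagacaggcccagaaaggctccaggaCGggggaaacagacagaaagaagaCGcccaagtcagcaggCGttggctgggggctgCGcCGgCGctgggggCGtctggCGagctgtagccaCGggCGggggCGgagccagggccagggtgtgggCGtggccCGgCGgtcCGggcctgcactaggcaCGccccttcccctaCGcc
These stretches held 17 CpGs for Bcor and 20 for Rnf2. Windows were found for 7 of the 10 genes, 13 windows in all, and 11 of them were CpG rich (observed over expected CpG above 0.6 and GC content above 50%), against 33.3% of all 32841 windows. The exceptions were Bcorl1, at an observed over expected ratio of 0.588, and 1 of the 3 Pcgf5 windows, with 5 CpGs in 300 bases. Some windows of Kdm2b and of Bcor overlap, and by gene 5 of the 7 had only CpG-rich windows.

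**Figure D1:**
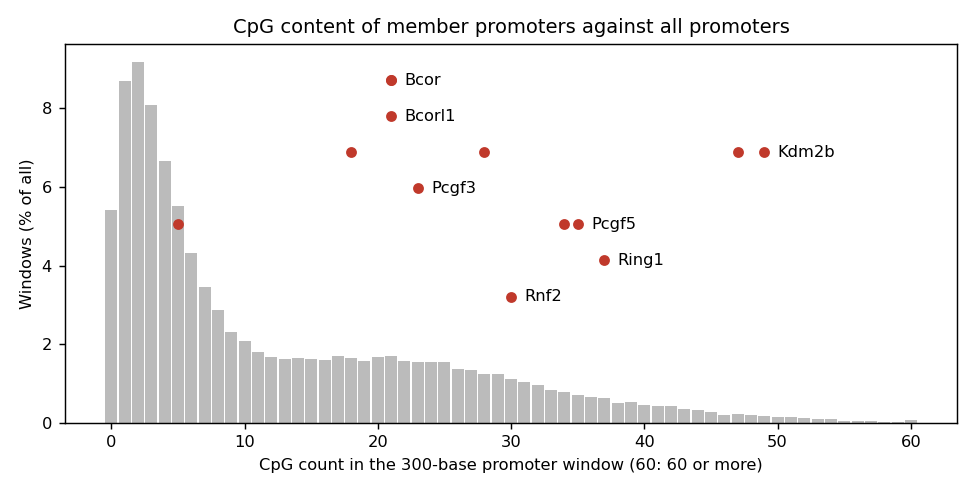
CpG count of RefSeq promoter windows (horizontal axis, 300 bases each) against the percentage of all windows with that count (grey bars). Red points are the windows of the members named beside them, at heights that carry no value, and all but 1 Pcgf5 window lie at 18 CpGs or more, above the median of 7 over all windows.

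Signals below are quantile-normalised log2 intensities (arbitrary units), and differences are log2 differences between group means with their 95% confidence interval from limma. A probe was called when its Benjamini-Hochberg adjusted p over all table probes was under 0.05 and its change exceeded 2-fold. Of the 14 member probes in the table, 9 were well above background on all 9 arrays, as was the added Pcgf5 probe. Probes for Ring1, Pcgf1 and 1 of Pcgf3 were above background on 6, 7 and 8 arrays. On no array did the remaining 4, Kdm2b A_55_P2051274, Pcgf3 A_52_P373846, Yaf2 A_55_P2159830 and Bcor A_55_P2045876, rise above background, and no fold is given for these. Between 45.4% and 57.5% of table probes were above background per array, and replicates of a group correlated at r = 0.958 to 0.972 across probes.

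Of these subunits Bcor alone was called in KO cells, and no member was called in I53A cells. In KO against WT 1 of 14 member probes was called by limma, where 3.84% of all table probes were called, and 2 had an unadjusted p under 0.05, as 17.4% of table probes did. In I53A against WT 0 of 14 were called, with 0.328% of table probes called, and 2 had an unadjusted p under 0.05, as 9.2% of table probes did. In KO against I53A 0 of 14 were called, with 1.33% of table probes called, and 2 had an unadjusted p under 0.05, as 11.3% of table probes did. Over the 14 member probes the median difference from WT was 0.29 in KO and 0.07 in I53A, against −0.02 and −0.01 over all table probes. For the 9 above background throughout it was 0.49 and 0.20, against −0.05 and −0.01 over all such probes of the table. Of these 9, 7 lay above WT in KO and 8 in I53A, while all such probes, with medians under 0, held at least as many below WT as above. The 9 are not independent, as Kdm2b and Bcorl1 gave 2 each and both differences use the same WT arrays. With normexp background correction Bcor and 1 Bcorl1 probe lay marginally below WT in I53A (−0.012 and −0.016), and with 75th percentile scaling Rybp lay above WT in KO (0.0070).

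**Figure D2:**
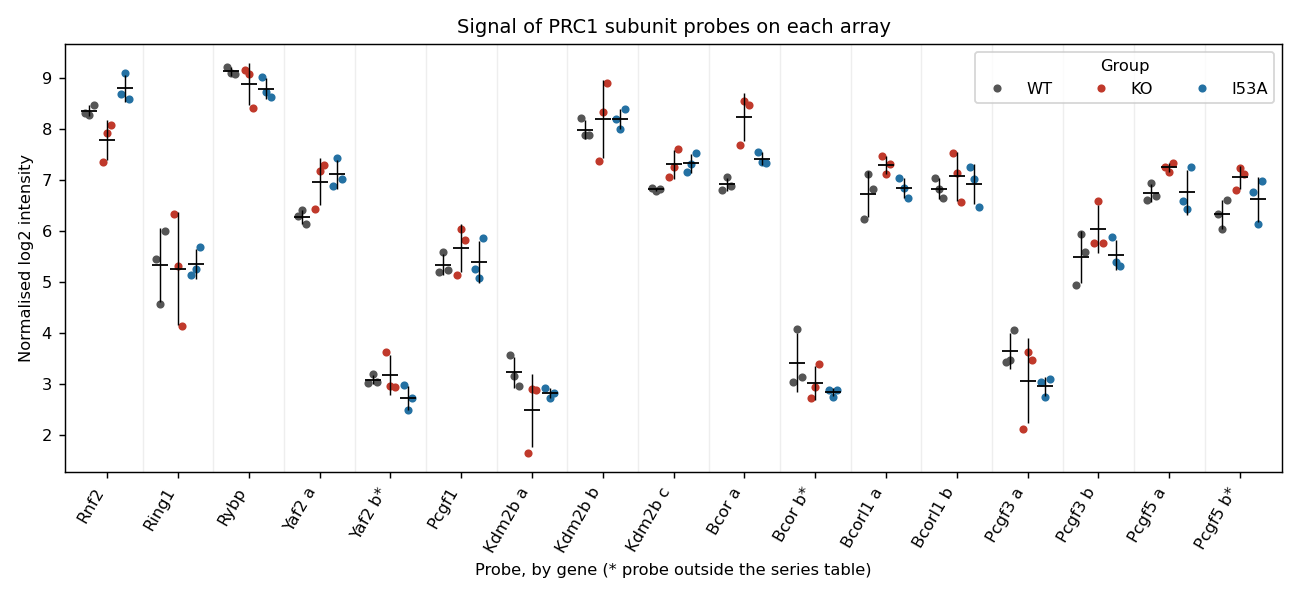
Normalised log2 intensity (vertical axis) of each member probe (horizontal axis, grouped by gene, letters separating probes of 1 gene in the order of their probe names) on each array. Points are single arrays in WT (grey), KO (red) and I53A (blue), with black marks for the mean ± SD (n = 3). The 3 KO arrays of Bcor a, at 7.69 to 8.54, lie above the 3 WT arrays at 6.80 to 7.05, and the 4 probes at background lie near the bottom.

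The catalytic subunits came first. Rnf2 (chromosome 1, 151469398 to 151500991, GRCm38) had 1 probe, with signals of 8.32, 8.27 and 8.47 on the WT arrays 1 to 3, 7.35, 7.92 and 8.08 on the KO arrays, and 8.69, 9.10 and 8.59 on the I53A arrays. All KO arrays lay below, and all I53A arrays above, every WT array. In 24.2% of table probes KO and WT did not overlap, and in 17.4% I53A and WT did not. The KO mean was 0.674-fold that of WT (log2 difference −0.57, 95% interval −1.14 to 0.00, limma adjusted p 0.288), and the I53A mean was 1.36-fold that of WT (0.44, −0.13 to 1.01, adjusted p 0.660). Neither difference passed the test. Directly compared, KO was 2.01-fold lower than I53A (−1.01, −1.58 to −0.44, limma adjusted p 0.112). This difference did not pass as tested, and passed with dim probes left out (adjusted p 0.0489) or with trended and robust variances (adjusted p 0.0436). As the arrays measure bulk RNA, fewer cells with a transcript and less of it per cell cannot be told apart, here and for all genes below.

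Ring1, which encodes RING1A, the second ligase of the family (chromosome 17, 34020792 to 34024680), was measured by A_51_P455266 and was close to background, above it on 2 of 3 arrays in each group. Its signals were 5.45, 4.57 and 5.999 in WT, 6.33, 5.32 and 4.14 in KO and 5.13, 5.26 and 5.69 in I53A. The groups overlapped throughout. The difference was −0.08 in KO (95% interval −1.24 to 1.08, limma adjusted p 0.970) and 0.02 in I53A (−1.14 to 1.18, adjusted p 0.995), and these intervals do not exclude a 2-fold change in either direction.

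RYBP and YAF2 occupy the position that a CBX protein takes in canonical PRC1. Rybp (chromosome 6, 100228565 to 100287358, probe A_55_P2003966) gave 9.22, 9.10 and 9.07 in WT, 9.15, 9.07 and 8.40 in KO and 9.01, 8.72 and 8.62 in I53A. All I53A arrays lay below all WT arrays, while KO and WT overlapped. The difference was −0.34 in I53A (95% interval −0.90 to 0.22, limma adjusted p 0.731) and −0.25 in KO (−0.81 to 0.30, adjusted p 0.665). Both intervals stayed within 2-fold of WT.

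Yaf2 (chromosome 15, 93283833 to 93336935) lay on the other side of WT. Its table probe gave 6.30, 6.41 and 6.14 in WT, 6.43, 7.17 and 7.28 in KO and 6.88, 7.43 and 7.02 in I53A. Every mutant array was above every WT array, KO 1 by the smallest margin. Yaf2 signal was 1.78-fold that of WT in I53A (log2 difference 0.83, 95% interval 0.22 to 1.44, unadjusted p 0.0127, limma adjusted p 0.357) and also higher in KO (log2 difference 0.68, 0.07 to 1.29, unadjusted p 0.0324, adjusted p 0.228), so neither passed after adjustment. Between KO and I53A the difference was −0.15 (−0.76 to 0.46, limma adjusted p 0.919). In KO the difference from WT was 0.88 over the arrays of slide 1 and 0.30 between the single arrays of slide 2. The other Yaf2 probe was at background on all arrays.

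PRC1.1, the variant complex built on PCGF1, contributed 4 members. Pcgf1 (chromosome 6, 83077552 to 83080855, probe A_66_P121656) gave 5.20, 5.58 and 5.24 in WT, 5.14, 6.05 and 5.82 in KO and 5.26, 5.08 and 5.86 in I53A, and its groups overlapped. It was above background on 1 WT array and on all mutant arrays. Differences from WT were 0.33 in KO (95% interval −0.34 to 1.00, limma adjusted p 0.637) and 0.06 in I53A (−0.62 to 0.73, adjusted p 0.975).

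Kdm2b (chromosome 5, 122870664 to 122989270), whose CXXC zinc finger brings PRC1.1 to CpG islands, had 3 probes, 2 of them above background. A_55_P2065149 gave 8.21, 7.88 and 7.88 in WT, 7.38, 8.33 and 8.89 in KO and 8.19, 7.99 and 8.38 in I53A. The KO arrays spanned both sides of WT, and the differences of 0.21 in KO (95% interval −0.56 to 0.98, limma adjusted p 0.819) and 0.20 in I53A (−0.57 to 0.97, adjusted p 0.913) stayed within 2-fold. A_55_P2065154 gave 6.85, 6.79 and 6.83 in WT, 7.06, 7.26 and 7.61 in KO and 7.16, 7.31 and 7.53 in I53A. With this probe both mutants lay wholly above WT, by 0.49 in KO (−0.01 to 0.98, limma adjusted p 0.298) and 0.51 in I53A (0.01 to 1.01, unadjusted p 0.0450, adjusted p 0.531), neither of which passed. The 2 probes thus differed in whether the groups overlapped, although the intervals of their differences from WT overlap.

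Bcor (chromosome X, 12036737 to 12160516) encodes a corepressor, first found as a partner of BCL6, that binds PCGF1 and holds PRC1.1 together. The probe whose end is printed above gave 6.80, 7.05 and 6.89 in WT, 7.69, 8.54 and 8.46 in KO and 7.56, 7.35 and 7.34 in I53A. The 3 groups did not overlap, with I53A between WT and KO. Bcor rose 2.49-fold in KO over WT (95% interval 1.67 to 3.73, log2 difference 1.32, SE 0.26, limma adjusted p 0.0205). I53A was 1.41-fold above WT (0.50, −0.08 to 1.08, limma adjusted p 0.631), which did not pass. KO was 1.76-fold above I53A (0.82, 0.24 to 1.40, unadjusted p 0.0103, limma adjusted p 0.221), so the effects of the 2 mutations on Bcor were not shown to differ.

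The Bcor call depended on processing while its direction did not. Adjusted p was 0.281 with normexp background correction (log2 difference 0.96), 0.0518 when only KO and WT were fitted and 0.0560 on slide 1 alone (1.58), where the single pair of arrays on slide 2 differed by 0.80. Leaving out WT 1, WT 2 or WT 3 gave adjusted p values of 0.0841, 0.0522 and 0.0763, and leaving out KO 2 or KO 3 gave 0.0733 and 0.0759, whereas without KO 1 it was 0.00733. Under normexp the I53A difference from WT was −0.012. The other Bcor probe, annotated to a non-coding Bcor transcript, was at background on all arrays.

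**Figure D3:**
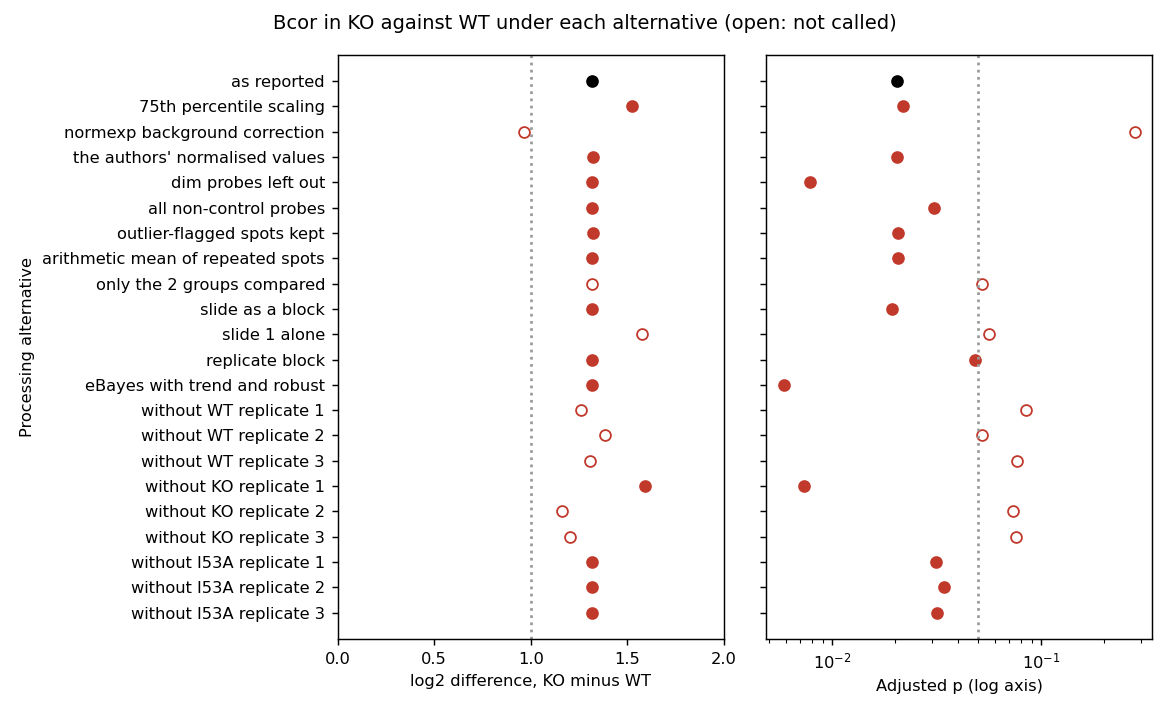
Bcor log2 difference, KO minus WT (left, linear axis), and its limma adjusted p (right, log axis) under each processing alternative and with each array left out (rows). Filled points were called, open points were not, and dotted lines mark 2-fold and an adjusted p of 0.05. The difference runs from 0.96 to 1.59 and the adjusted p from 0.00585 to 0.281.

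Bcorl1, a relative of Bcor that can take its place on PCGF1 (chromosome X, 48341358 to 48408068), had 2 probes, both above background throughout. A_51_P376057 gave 6.23, 7.12 and 6.83 in WT, 7.47, 7.11 and 7.31 in KO and 7.04, 6.85 and 6.64 in I53A. WT 2 reached the lower end of the KO arrays, and the KO difference of 0.57 did not pass (95% interval −0.02 to 1.16, limma adjusted p 0.308), nor did the I53A difference of 0.12 (−0.48 to 0.71, adjusted p 0.937). KO lay wholly above I53A with this probe, by 0.45 (limma adjusted p 0.601), and in 15% of table probes KO and I53A did not overlap. A_55_P2011395 gave smaller differences from WT, 0.24 in KO (−0.43 to 0.91, limma adjusted p 0.744) and 0.09 in I53A (−0.58 to 0.76, adjusted p 0.961), with overlapping groups. Both intervals lay within 2-fold.

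Pcgf3 and Pcgf5 encode the PCGF proteins of the closely related complexes PRC1.3 and PRC1.5. Pcgf3 (chromosome 5, 108461259 to 108506976) was measured near background by A_52_P386682, at 4.94, 5.94 and 5.58 in WT, 5.77, 6.58 and 5.76 in KO and 5.88, 5.40 and 5.31 in I53A. Its groups overlapped, with differences of 0.55 in KO (95% interval −0.19 to 1.28, limma adjusted p 0.443) and 0.04 in I53A (−0.70 to 0.78, adjusted p 0.983).

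Both Pcgf5 probes (chromosome 19, 36348329 to 36460970) were above background on all arrays. A_55_P1996171 gave 6.61, 6.95 and 6.68 in WT, 7.26, 7.16 and 7.34 in KO and 6.59, 6.43 and 7.26 in I53A. The probe outside the table, A_55_P2150555, gave 6.33, 6.04 and 6.61 in WT, 6.80, 7.24 and 7.13 in KO and 6.76, 6.13 and 6.98 in I53A. With either probe all KO arrays lay above all WT arrays, while the I53A arrays overlapped WT. KO exceeded WT by 0.51 (95% interval −0.06 to 1.08, limma adjusted p 0.348) and by 0.73 (0.09 to 1.36, unadjusted p 0.0287, adjusted p 0.279 over all 55681 probes), so neither probe passed. For I53A the differences were 0.01 (−0.56 to 0.58, limma adjusted p 0.993) and 0.30 (−0.34 to 0.93, adjusted p 0.861).

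**Figure D4:**
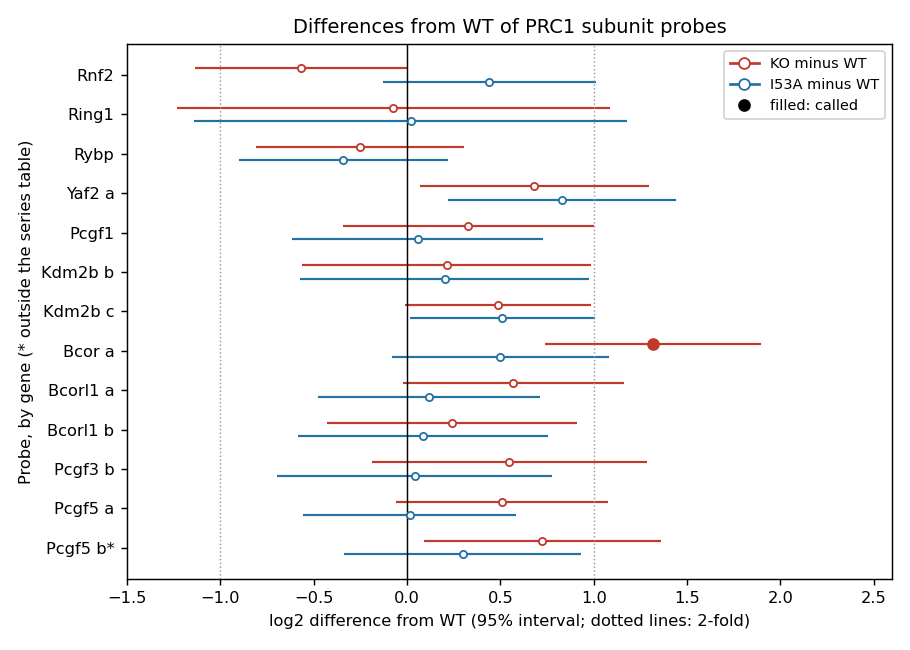
Log2 difference from WT (horizontal axis) of the 13 member probes above background on at least 1 array (rows), KO in red and I53A in blue, with 95% intervals from limma and dotted lines at 2-fold. Bcor in KO is the single filled, called point, at 1.32. Uncalled points with intervals wholly right of 0 are Yaf2 in both mutants, Pcgf5 A_55_P2150555 in KO and Kdm2b A_55_P2065154 in I53A.

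The width of these intervals limits what was detectable. In KO 4 of the 14 table probes had an interval wholly within 2-fold of WT, against 45.6% of all table probes, and in I53A 7 of 14 did, against 52.7%. Between KO and I53A it was 7 of 14, against 51.3%. Among the 9 table probes above background throughout, the median SD over 3 arrays was 0.13 (WT), 0.41 (KO) and 0.20 (I53A), against 0.22, 0.27 and 0.27 over all such probes of the table. KO 1, the KO array on slide 2, was the lowest KO array for 5 of these 9 probes, and for 41.8% of such probes of the table.

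The other subunits and enzymes around these complexes were counted by list, on the brightest probe of each gene. None of 7 measured accessory partners of variant PRC1 (9 listed) or 10 measured PRC1.6 subunits (11 listed) was called in any comparison. Nor was any of 9 genes for ubiquitin-conjugating enzymes, deubiquitinases and deubiquitinase partners acting on histone H2A. At an unadjusted limma p under 0.05 in KO against WT, these lists had, in this order, 1 higher, 0, and 2 lower. Median KO differences from WT in these lists were 0.03, 0.13 and −0.02. Of 11 canonical subunits 1 rose in KO over WT (at an unadjusted p under 0.05, 2 were above WT and 1 below), where 3.84% of all table probes were called, and 0 in I53A (0 at an unadjusted p under 0.05). The list median was −0.11 in KO. This was Scml2, a Polycomb protein gene on chromosome X (at least 6.199-fold, limma adjusted p 0.00500, above background on 3 KO arrays and 0 WT arrays). It was also 5.61-fold higher in KO than in I53A (limma adjusted p 0.0178), where it was above background on 2 of 3 I53A arrays. The dimmer Scml2 probes, A_55_P2003803 and A_66_P102256, were called in neither comparison. Their log2 differences in KO from WT were 1.69 (limma adjusted p 0.130) and 0.26 (limma adjusted p 0.889). "At least" marks a bound where the dimmer group lay at background on all 3 arrays.

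Dimmer probes gave 3 further calls in KO against WT, 2 of them for 1 gene. Counting every probe, 2 of 15 accessory partner probes and 2 of 23 canonical probes were called, the latter including the Scml2 probe above. In the PRC1.6 list 0 of 12 probes were called and in the enzyme list 0 of 13, where 3.84% of all table probes were. Dcaf7, a WD-repeat partner of PRC1.3 and PRC1.5, was higher with A_66_P130906 (2.39-fold, limma adjusted p 0.0291) and A_55_P2026370 (at least 2.46-fold, adjusted p 0.0198), and its brightest probe was 1.91-fold higher without passing (adjusted p 0.133). A dimmer probe for Cbx6, a chromodomain subunit of canonical PRC1, fell 2.68-fold in KO (limma adjusted p 0.0183, above background on 2 of 3 KO arrays). The brightest Cbx6 probe, at a log2 difference of −0.46, did not pass (limma adjusted p 0.575). Dcaf7 lies on chromosome 11, whose probes had a median KO difference from WT of 0.20 against −0.03 elsewhere, and the part of this shift in its values was not tested. No member lies on chromosome 11, and the chromosomes of the members had medians between −0.050 and −0.0016.

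The cells carried ES cell markers, with all 6 measured of 7 (Pou5f1, Nanog and others) above background on every array. Their summed linear signal was 41819 to 44313 in KO, above the ranges of 22341 to 39923 in WT and 18385 to 38431 for I53A. Primitive endoderm markers (5 genes) had a summed linear signal of 147 to 219 in KO, against 47.6 to 75.1 in WT and 63.0 to 78.8 for I53A. Dab2 and Pdgfra were at background in all groups, and Gata4 and Sox17 also in WT and I53A, so 4 of the 5 lay at background there. In KO 1 of the 5 was above background on all 3 arrays. For 2 measured of 5 markers of 2-cell-like cells the sum was 163 to 226 in KO, 92.0 to 142 in WT and 78.2 to 86.3 in I53A, with Tdpoz4 at background in WT and I53A. In KO these 3 sums lay above WT, as Bcor did, and their part in its change was not tested. The sum of 5 trophoblast markers ranged from 416 to 426 (WT), 406 to 512 (KO) and 404 to 461 (I53A) with Elf5 at background, and the fibroblast sum was 443 to 546, 491 to 556 and 515 to 685 with Postn at background. The neural sum (4 markers) ranged from 169 to 195 for WT, 194 to 264 for KO and 212 to 242 for I53A. Neurog1 was at background in WT and I53A, and Nes in WT. In I53A the neural sum lay wholly above WT, as Bcor did, and the 2-cell-like sum lay wholly below. The part of these sums in the Bcor values of I53A was not tested.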

How the data were processed

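The authors hybridised Cy3-labelled RNA of each sample to 1 SurePrint G3 mouse array and extracted spots with Agilent Feature Extraction (version 11.5.1.1 per the file headers). The deposited scan files hold linear fluorescence intensity per spot, background subtracted by that software. The deposited table holds the authors' quantile-normalised log2 values for 30170 probes (mm10), and also their means, fold changes, p-values and flags for KO and I53A against WT, none of which were used. No column of per-sample values was left unused.

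Processed intensities were log2 transformed after control and outlier-flagged spots were left out, repeated spots were averaged, and quantile normalisation was run over 55681 non-control probes (R 4.3.3). limma 3.58.1 fitted 1 mean per group to all 9 arrays (moderated two-sided tests, 6 residual degrees of freedom), with Benjamini-Hochberg adjustment over 30170 probes (30169 in comparisons with I53A, where 1 probe had no value). Probes outside the table were tested in a separate limma fit of the same model to all 55681 probes, with adjustment over all of them. The fit was checked on simulated data. For "at least" values, signals under an array's background limit were raised to it. Outlier-flagged spots were 0.400% to 0.548% of an array and saturated spots 5 to 9, and signal over background and the number of arrays limit the precision. WT 3, KO 1 and I53A 3 were on slide 2 and the others on slide 1. A slide column held 1 group only, so these cannot be told apart. Replicate numbers come from the sample titles, although another label gives all KO samples the number 1.

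All probes of the 10 genes are named, other genes of the pathway only where a probe was called, and cell type markers as examples of their lists. One gene of the canonical list is not reported here. The genes and lists were chosen with earlier results of these data known. Alternatives were 75th percentile scaling, normexp (offset 50), the authors' log2 values, a dim probe filter (above background on at least 3 arrays), all non-control probes, outlier spots kept, arithmetic means of repeated spots, only 2 groups fitted, slide as a block, slide 1 alone, a replicate block, trended and robust variances, no fold threshold, and each array left out. The planned mean-signal column is not in the scan files used here, so normexp used the median foreground and background signals. Gene positions and promoters are from RefSeq (GRCm38.p6).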

Additional observations from a re-analysis of the deposited data

How the results depend on the processing

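Over 39 differences of single probes and 21 alternatives, 22 kept their direction throughout. The count of member probes called in KO against WT went from 1 to 0 with normexp, with only 2 groups fitted and on slide 1 alone, for Bcor differences of 0.96, 1.32 and 1.58, and was 0 to 1 with an array left out. Bcor then ranged from 1.16 to 1.59. In KO against I53A the count went from 0 to 1 (Rnf2, −1.01) with dim probes left out and with trended and robust variances, which test fewer probes and use another variance model. Over all probes, calls in KO against WT went from 1159 to 326 with normexp and 332 on slide 1 alone, and ranged from 610 to 1.1e+03 with an array left out (610 to 759 without WT 1, WT 2, WT 3, KO 2 or KO 3). Calls in I53A against WT went from 99 to 44 with 75th percentile scaling, 46 with normexp, 224 with dim probes left out, 45 with 2 groups, 2 on slide 1 and 198 with trended and robust variances, and ranged from 22 to 87 with an array left out. In KO against I53A, 400 became 132 with normexp, 213 with 2 groups and 63 on slide 1, and ranged from 181 to 326. The share of higher calls was 71.7% in I53A against WT and 54.3% with normexp. Correlations of same-numbered deviations were 0.22, 0.0029 and 0.12 in I53A against WT, and −0.078, −0.021 and −0.048 in KO against WT. In KO against I53A they were −0.15, −0.27 and 0.081, and whether replicate numbers pair the samples was not settled. With the replicate block the calls were 797, 25 and 194, with Bcor still called (limma adjusted p 0.0480). Slide 1 alone has 2 arrays a group.

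The cause was not tested where single probes changed sign, from main differences of up to 0.50 (Bcor, I53A against WT). In KO against WT, Rybp was 0.0070 with 75th percentile scaling and Bcorl1 A_55_P2011395 −0.079 on slide 1. In I53A against WT, normexp gave −0.011 for Ring1, −0.012 for Bcor, −0.016 for Bcorl1 A_55_P2011395 and −0.0044 for Pcgf3, and slide 1 gave −0.23 for Pcgf1 and −0.27 for Pcgf5 A_55_P1996171. In KO against I53A, normexp gave 0.0047 for Ring1, −0.045 for Rybp and 0.079 for Kdm2b A_55_P2065154, which was 0.099 with 75th percentile scaling. There slide 1 gave −0.13 for Rybp, 0.070 for Yaf2, 0.20 for Kdm2b A_55_P2065154 and −0.29 for Bcorl1 A_55_P2011395. With an array left out, KO minus WT ranged from −0.61 to 0.49 for Ring1 and −0.13 to 0.62 for Kdm2b A_55_P2065149. I53A minus WT then ranged from −0.37 to 0.35 for Ring1, −0.17 to 0.22 for Pcgf1, −0.13 to 0.31 for Bcorl1 A_51_P376057, −0.079 to 0.31 for Bcorl1 A_55_P2011395, −0.23 to 0.27 for Pcgf3 and −0.24 to 0.18 for Pcgf5 A_55_P1996171. KO minus I53A ranged from −0.63 to 0.47 for Ring1, −0.048 to 0.32 for Rybp, −0.31 to 0.12 for Yaf2, −0.34 to 0.42 for Kdm2b A_55_P2065149, −0.17 to 0.10 for Kdm2b A_55_P2065154 and −0.070 to 0.41 for Bcorl1 A_55_P2011395.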
